A study of Danio rerio with 13 samples.

Results

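The genes examined here are nuclear-encoded genes of the mitochondrial respiratory chain in zebrafish ventricles after cryoinjury. Members were taken by symbol (nduf, uqcr, cox, sdh, atp5 and etf families, and cyc1) from the 1587 genes that the study lists in its supplementary pathway tables. This gave 60 candidates, of which etf1b, a translation termination factor, was left out because it sits in sets of peptide chain elongation. The remaining 59 genes were all among the 32520 genes of the count table. They comprise 6 core and 28 accessory subunits of complex I, 5 genes of complex II, 7 of complex III, 10 of complex IV and 3 of the electron transfer flavoprotein system. No gene of the atp5 family was found by the rule, so the ATP synthase is not represented. For 58 of the members the only source was a table on ventricles of uninjured fish, and cyc1 also stands in a table made from the cryosections analysed here. The rule itself read symbols and set names, but the study presents these tables as genes regulated between mutants and controls, so the candidates had already been chosen by the study in other hearts and, for cyc1, in the present sections.

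The respiratory chain sits in the inner mitochondrial membrane and passes electrons from NADH and succinate to oxygen. Complex I takes electrons from NADH, complex II oxidizes succinate and is also an enzyme of the TCA cycle, complex III hands electrons to cytochrome c, and complex IV, cytochrome c oxidase, reduces oxygen. The electron transfer flavoprotein and its dehydrogenase feed in electrons from fatty acid oxidation. Complexes I, III and IV are built from both nuclear and mitochondrially encoded subunits, whereas all subunits of complex II are encoded in the nucleus, and cardiac muscle is among the tissues richest in these complexes.

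RNA-seq libraries were made from 6 vegfc(hy-/-);vegfd(-/-) mutants and 7 vegfc(+/+);vegfd(+/+) controls. Vegfc and vegfd encode lymphatic growth factors, and the mutants carry germline mutations of both. The vegfc allele (hy) is hypomorphic and the vegfd allele is null, and the study notes that some Vegfc signaling could remain. The impairment is thus not limited to lymphatic vessels or to the heart. Each sample came from 12 sections of 8 μm cut from a PFA-fixed, O.C.T.-embedded ventricle collected 6 months after cryoinjury, and ribosomal RNA was depleted before library preparation. The study asked which pathways depend on vegfc and vegfd in the injured ventricle. Fish age was not analysed here. The sample labels do not say which mutant hearts regenerated, so the mutants form 1 group. Samples are named by group and replicate number. The sections hold all cells of the ventricle, so that fewer cells of a type and less RNA per cell cannot be told apart.

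The libraries were dominated by 1 gene. The 7SL RNA gene rn7sl1 (ENSDARG00000087732), the RNA of the signal recognition particle, held 94.7% to 96.4% of counts in mutants and 60.8% to 91.5% in controls. This share was higher in every mutant than in any control (p = 0.00175 in a two-sided exact permutation test, adjusted to 0.00699 for the 4 depth measures compared). The counts left for all other genes were 171218 to 596616 in mutants and 256802 to 1070324 in controls, a difference within the spread between samples (p = 0.652 in the same exact test, adjusted p also 0.652). Control 8 had the most counts outside rn7sl1 and yet only 3 of the 59 members with a count, and control 5 held an etfa count far above all others. For the members, results that change when these samples are left out are therefore given both ways. Of 10 cardiomyocyte markers, 6 could be paired with an identifier, and all 6 were counted. Their sum was 142 to 2219 counts in mutants (median 1457) and 166 to 481 counts in controls (median 328). Of the 5 tested, 1, actc1a, was higher in mutants at an unadjusted p under 0.05 (adjusted p = 0.284, edgeR quasi-likelihood test). Actc1a held the most counts of the 6 in every mutant (137 to 1003). Nppa was counted in mutants 2 and 6 only, and in controls 1, 3, 4, 7 and 8. Summed leukocyte markers (4 paired) gave 0 to 225 counts in mutants and 0 to 257 in controls, those of endothelium (3 paired) 1 to 192 in mutants and 0 to 117 in controls, and those of fibroblasts and epicardium (5 paired) 71 to 370 in mutants and 70 to 397 in controls, with tcf21 at 0 in all samples. Summed markers of erythrocytes (3 paired) gave 0 to 168 counts in mutants and 0 to 12 in controls. The 1 tested, hbaa1, had 36, 132 and 168 counts in mutants 1, 2 and 3 and 0 in all other samples. Its edgeR quasi-likelihood p was 0.00107 before and 0.103 after adjustment. The single paired markers of skeletal and of smooth muscle gave 0 to 1040 and 0 to 469 counts in mutants, and 0 to 296 and 0 to 580 in controls. The part of these cell types in the values that follow was not tested, and that of rn7sl1 was examined only by a fit without it.

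Respiratory chain transcripts were sparse. At least 1 count was present for 46 of the 59 members (78.0%), against 60.3% of all genes in the table. The other 13 members were at 0 in all samples. These were the complex I genes ndufa1, ndufa2, ndufa5, ndufa11, ndufa12, ndufab1a, ndufab1b, ndufb1, ndufb5, ndufc2 and ndufs3, the complex II membrane anchor sdhdb and the complex IV gene cox5ab. A floor of 3 counts per library equals 0.442 to 0.690 CPM in mutants and 0.406 to 0.800 CPM in controls. That floor allows for counting error only, and counts varied far more than that between libraries. These genes were thus not detected, which does not show them absent or below the floor.

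A member with any count was seen in a median of 2 of the 13 samples, the same as for all genes counted. Only 134 of the 767 values of a member in a sample were above 0, which was 69 of 354 values (19.5%) in mutants and 65 of 413 (15.7%) in controls. Of these 134 values, 35 were 1 to 3 counts and 47 were over 50 counts. The sample with the most counts held a median of 87.1% of a member's counts, against 80.6% over all genes counted. In 13 of the 46 counted members (28.3%) all counts came from a single sample, against 31.2% of all genes counted. Of the 46, 17 were counted in mutants only and 6 in controls only. Over all 19595 genes counted, 3167 were counted in mutants only and 5571 in controls only.

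**Figure D1:**
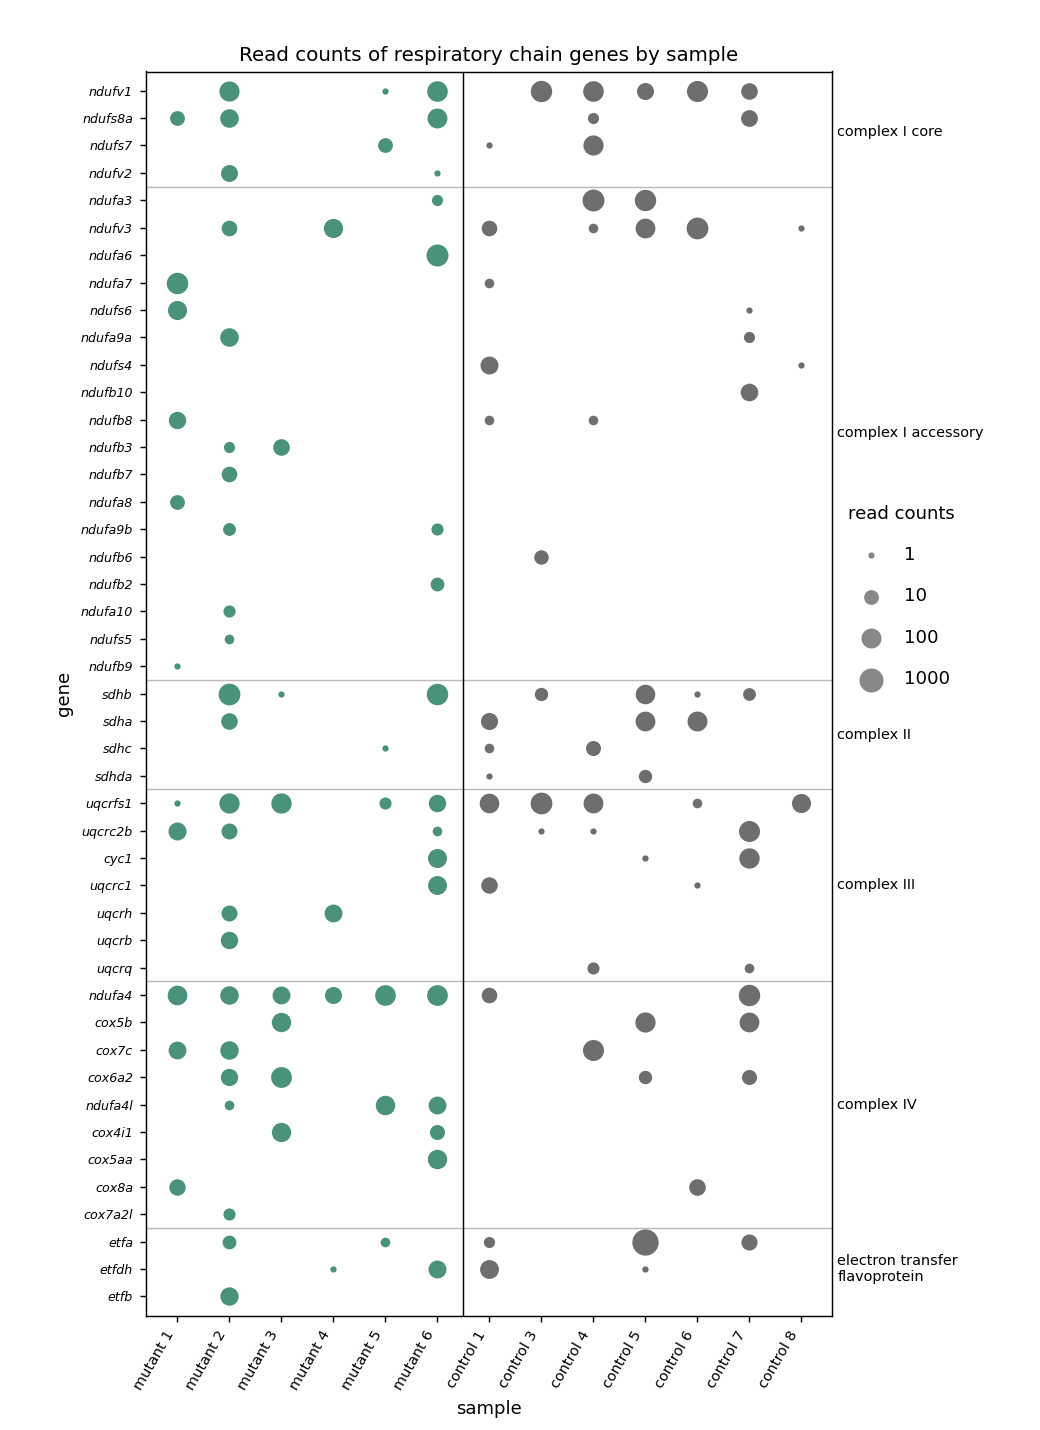
Counts of 45 members with any count (rows, by complex) in the 6 mutants (left, green) and the 7 controls (right, gray), with the area of a circle growing with the log of the count and no circle at 0. Most rows hold 1 to 3 circles, ndufa4 is the only row with a circle in all 6 mutants, and the largest circle is etfa in control 5.

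The number of members with a count did not separate the groups. It was 4 to 23 per sample in mutants (11, 23, 7, 4, 7 and 17; mean 11.5 ± 7.20, SD, n = 6) and 3 to 14 per sample in controls (14, 6, 11, 11, 7, 13 and 3; mean 9.29 ± 4.03, SD, n = 7). The difference of 2.21 members rested on mutant 2 and was -0.09 without that sample. It was 1.3 without controls 5 and 8. Mutant 2, with 23 members counted, also had the most genes counted in the whole table (7398).

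**Figure D2:**
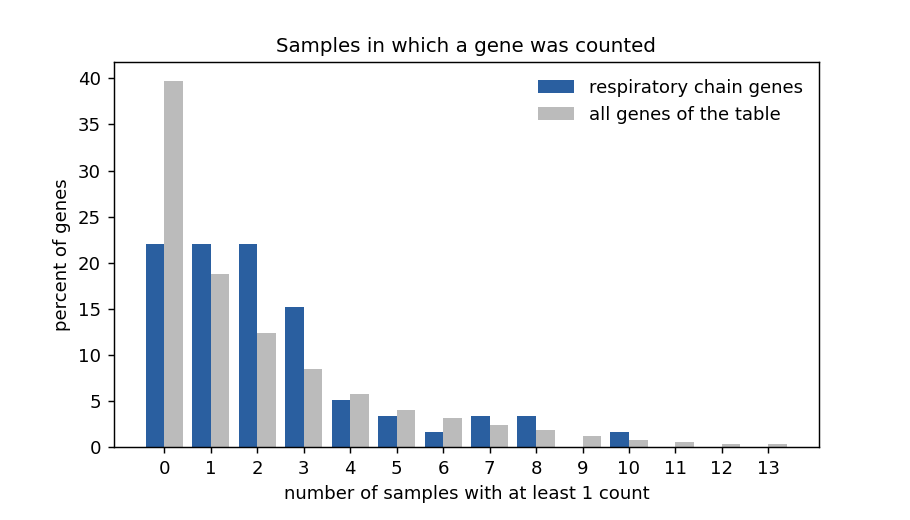
Percent of genes (y axis) counted in 0 to 13 samples (x axis) for the 59 respiratory chain genes (blue) and all 32520 genes of the table (gray). Of the respiratory chain genes, 22.0% were at 0 in all samples, against 39.7% of all genes, and none was counted in more than 10 samples.

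The members held a small share of the counts outside rn7sl1. The mean share was 0.140 ± 0.0709% in mutants (SD, n = 6; median 0.149%) and 0.265 ± 0.329% in controls (SD, n = 7; median 0.215%), a ratio of means of 0.531. Among mutants the share lay between 0.0455% in mutant 5 (95% Wilson interval 0.0401% to 0.0516%) and 0.212% in mutant 2 (0.199% to 0.226%). Among controls it lay between 0.00626% in control 8 (0.00493% to 0.00795%) and 0.986% in control 5 (0.959% to 1.01%). These intervals cover at most counting error, since they take reads as independent, and each group was far more spread than they are wide. A single gene, etfa, made 0.860% of the counts outside rn7sl1 in control 5 (95% Wilson interval 0.835% to 0.886%) and 37.5% of all counts on members in the series. With etfa left out, a choice made after its values were seen, the mean share was 0.140% in mutants and 0.141% in controls (ratio 0.995). The ratio was 0.973 without control 5 and 0.817 without controls 5 and 8, so that its size depended on which of these controls were included.

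**Figure D3:**
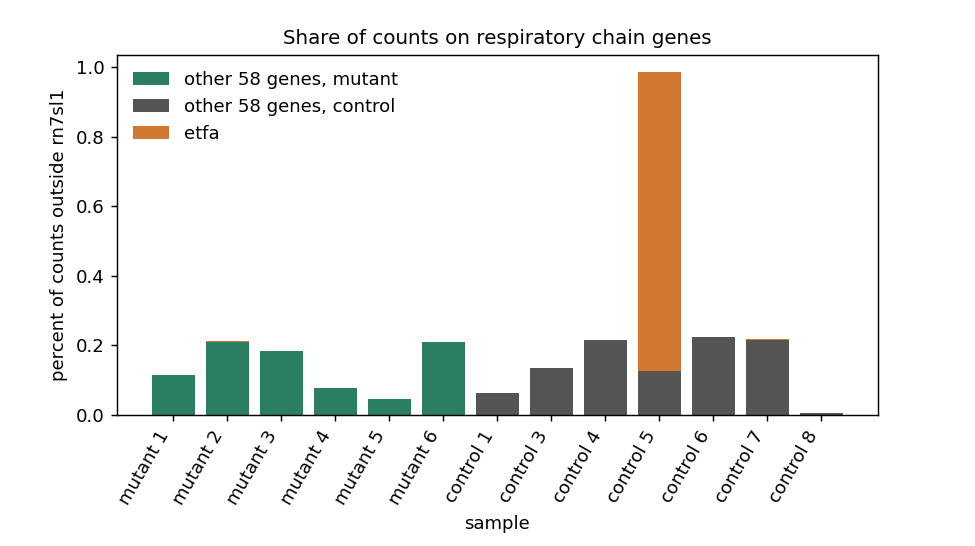
Percent of the counts outside rn7sl1 on the 59 respiratory chain genes (y axis) in each mutant (green) and control (gray), with etfa stacked on top in orange. Without the orange part the controls span 0.00626% to 0.225%, and the mutants lie within that range.

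Testing was limited to genes averaging 10 or more counts a sample, a minimum that 16 of the 59 members (27.1%) and 18.9% of all genes passed. The member nearest to that minimum from above was ndufs8a (mean 14.3 counts) and from below ndufs7 (mean 9.38 counts). In the edgeR quasi-likelihood test, 1 of the 16 was called at an adjusted p under 0.05 (etfa, lower in mutants), against 0.0978% of the 6138 genes tested. No member was called higher at that threshold in edgeR or DESeq2. At an unadjusted p under 0.05 in edgeR, 4 of the 16 were called, against a background of 15.2%. Ndufa6 and ndufa7 were higher in mutants (background 5.9%), and etfa and ndufa3 were lower (background 9.3%). A gene with all its counts in 1 library passes the minimum only through that library, so the counts of calls carry no weight beyond the genes themselves. Without controls 5 and 8, 4 of 17 tested members had an unadjusted p under 0.05 (ndufa3, ndufa4l, ndufa6 and sdhb), against 16.3% of all genes tested in that fit.

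The log2 fold changes of mutant over control were positive in 6 of the tested members and negative in 10. Their median was -0.73, against -0.30 over all genes tested. The members' median was also negative with RLE (-0.95), TMMwsp (-0.95) and unscaled library sizes (-2.14). It was 1.22 with upper-quartile scaling, under which the median of all genes was 0.39. In DESeq2 the members' median was positive as well (2.36). By default DESeq2 replaces outlying counts only in groups of 7 or more samples, here the controls alone. The part of this replacement in the DESeq2 value was not tested. Since the sign changed with upper-quartile scaling and in DESeq2, the direction of the group of genes was not fixed by these data.

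**Figure D4:**
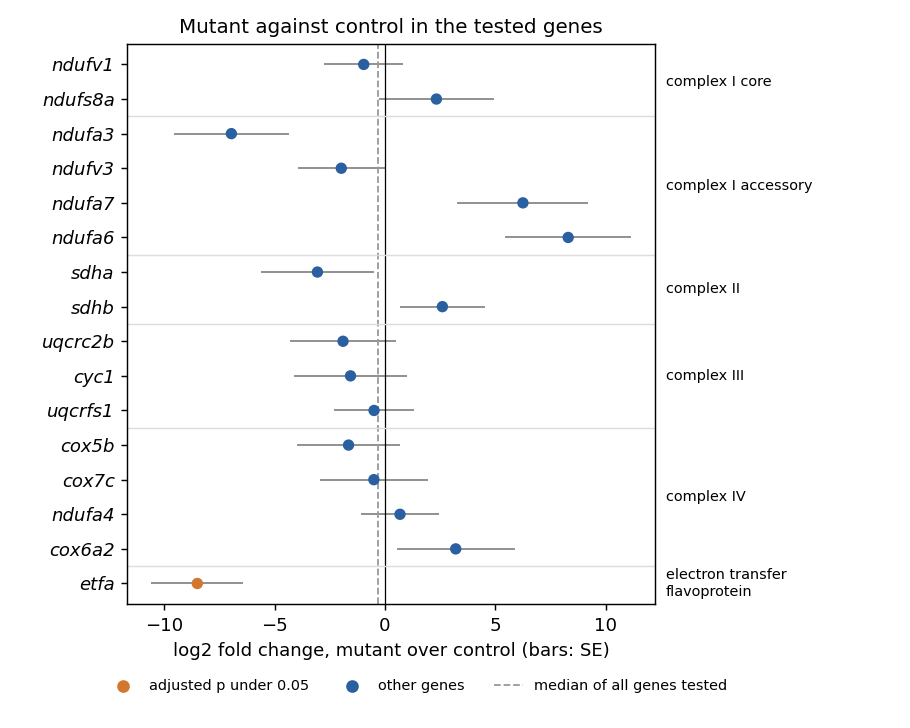
Log2 fold change of mutant over control (x axis, bars 1 SE of the edgeR fit) for the 16 tested members (rows, by complex), with the median of all genes tested as a dashed line. Etfa, in orange, has an adjusted p under 0.05, and members of complex I, II and IV lie on both sides of 0.

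In the core of complex I, the subunits that carry out electron transfer from NADH, ndufv1 was counted in 8 of the 13 samples, as was ndufa4, and uqcrfs1 was the only member counted in more. Ndufv1 (ENSDARG00000036438), which binds NADH and flavin mononucleotide, had 114, 1 and 141 counts in mutants 2, 5 and 6 and 0 in the other mutants. Controls 3, 4, 5, 6 and 7 had 212, 142, 25, 181 and 21 counts, and controls 1 and 8 had 0. The groups overlapped, although controls 3 and 6 (28.7 and 45.0 CPM) lay above the highest mutant (mutant 2, 25.7 CPM). The mean was 7.77 ± 12.1 CPM in mutants (SD, n = 6) and 15.1 ± 17.3 CPM in controls (SD, n = 7), with a log2 fold change of -0.96 (SE 1.80; edgeR adjusted p = 1). Ndufs8a (ENSDARG00000051986), an iron-sulfur core subunit, had 10, 52 and 98 counts in mutants 1, 2 and 6, against 3 and 23 counts in controls 4 and 7, and 0 elsewhere (log2 fold change 2.33, SE 2.59; edgeR adjusted p = 0.981). The highest values of ndufs8a were thus in mutants, but as many mutants were at 0 as were counted, and without control 7 the log2 fold change was 5.48 (edgeR adjusted p = 0.392). The remaining core genes were mostly single-library signals. Ndufs7 had 10 counts in mutant 5, against 1 and 111 counts in controls 1 and 4. Ndufv2 was counted in mutants only, with 24 counts in mutant 2 and 1 in mutant 6.

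The accessory subunits surround this core and serve its assembly and stability. Of the 28 accessory genes, 18 had a count, and 4 were tested. Ndufa3 (ENSDARG00000041400) had 3 counts in mutant 6 and 0 in the other mutants, against 287 and 218 counts in controls 4 and 5 and 0 in the other controls. Although the mean was 0.0736 ± 0.180 CPM in mutants (SD, n = 6) and 12.3 ± 21.1 CPM in controls (SD, n = 7), most samples of both groups were at 0. Its log2 fold change was -6.95 (SE 2.60), with an unadjusted p of 0.0075 and an adjusted p of 0.103 in edgeR, and it stayed between -9.02 and -6.20 when any 1 sample was left out. Adjusted p was 0.295 without control 4 and 0.284 without control 5.

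Ndufa6 (ENSDARG00000038028), an accessory subunit of the LYR protein family, had all of its 294 counts in mutant 6. This gave a mean of 7.22 ± 17.7 CPM in mutants (SD, n = 6) and 0 CPM in all controls. With controls set to the floor of 3 counts per library, the mean was 11.7-fold higher in mutants. The floor allows for counting error only, so this is not a lower bound. The edgeR p was 0.0037 before and 0.103 after adjustment. Ndufa7 (ENSDARG00000036684) had 225 counts in mutant 1 and 0 in the other mutants, against 2 counts in control 1 and 0 in the other controls (log2 fold change 6.25, SE 2.97; edgeR adjusted p = 0.273). Without mutant 6, ndufa6 has no count at all, and without mutant 1 the same is nearly true of ndufa7, with 2 counts left, so that neither difference has support in a further mutant. The unadjusted p of ndufa7 was also above 0.05 when any 1 of controls 3, 4, 5, 6, 7 or 8 was left out.

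Ndufv3 (ENSDARG00000090389), an accessory subunit of the NADH-oxidizing module, was the most widely counted accessory gene. It had 14 and 70 counts in mutants 2 and 4 and 0 in the other mutants. Controls 1, 4, 5, 6 and 8 had 14, 2, 94, 272 and 1 counts, and controls 3 and 7 had 0. Its mean was 3.21 ± 6.44 CPM in mutants (SD, n = 6) and 12.7 ± 25.1 CPM in controls (SD, n = 7), a difference within the spread between samples (log2 fold change -1.98, SE 1.97; edgeR adjusted p = 0.949). The value was -0.24 without control 6 and -4.26 without mutant 4. Ndufs4 had no count in mutants, against 38 counts in control 1 and 1 in control 8, and ndufs6 had 66 counts in mutant 1, against 1 count in control 7. Of the ndufa9 copies, ndufa9a had 51 counts in mutant 2, against 3 in control 7, and ndufa9b had 5 and 4 counts in mutants 2 and 6, against none in controls. The other accessory genes that were counted had 1 to 33 counts in all. Summed over its 34 nuclear genes, complex I gave 11 to 548 counts in mutants (median 176.5) and 2 to 547 counts in controls (median 314), ranges that coincided.

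Complex II is encoded by the nucleus alone, and none of its genes passed the test. Sdhb (ENSDARG00000075768), the iron-sulfur subunit, had 263, 1 and 226 counts in mutants 2, 3 and 6, against 6, 81, 1 and 5 counts in controls 3, 5, 6 and 7, and 0 in all other samples. The mean was 15.5 ± 25.2 CPM in mutants (SD, n = 6) and 2.53 ± 5.68 CPM in controls (SD, n = 7), with a log2 fold change of 2.60 (SE 1.93; edgeR adjusted p = 0.724). Leaving out control 5, which held most of the control counts, gave 5.22, with an unadjusted p under 0.05 and an edgeR adjusted p of 0.212, and leaving out mutant 2 gave 1.42. It was 4.99 without controls 5 and 8. Sdha (ENSDARG00000016721), the flavoprotein subunit that holds the succinate site and pairs with sdhb in the enzyme, had 21 counts in mutant 2 and none in the other mutants, against 26, 91 and 99 counts in controls 1, 5 and 6 and none in the other controls. Its log2 fold change was -3.06 (SE 2.56; edgeR adjusted p = 0.835). Without mutant 2 every mutant is at 0, and the unadjusted p was then under 0.05 (edgeR adjusted p = 0.136). The signs of the pair were opposite, except with a replicate block, where both were negative. No control shares the number of mutant 2, so mutant 2 did not inform the genotype effect in that fit. Mutant 6 had 226 counts on sdhb and 0 on sdha, and control 6 had 1 count on sdhb and 99 on sdha. Both were counted in mutant 2, control 5 and control 6. Of the membrane anchors, sdhc had 1 count in mutant 5, against 2 and 11 counts in controls 1 and 4, and sdhda had none in mutants, against 1 and 6 counts in controls 1 and 5.

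Complex III showed no difference beyond the spread between samples. Uqcrfs1 (ENSDARG00000007745), the Rieske iron-sulfur protein, was the member counted most widely, in 10 of the 13 samples. Mutants 1, 2, 3, 5 and 6 had 1, 118, 123, 4 and 30 counts and mutant 4 had 0, and controls 1, 3, 4, 6 and 8 had 85, 266, 97, 2 and 65 counts and controls 5 and 7 had 0. Its mean was 8.67 ± 11.7 CPM in mutants (SD, n = 6) and 12.2 ± 13.3 CPM in controls (SD, n = 7), with overlapping groups (log2 fold change -0.49, SE 1.81; edgeR adjusted p = 1). Without control 3 the log2 fold change was 0.14. Uqcrc2b (ENSDARG00000071691), a core protein, had 39, 16 and 2 counts in mutants 1, 2 and 6, against 1, 1 and 173 counts in controls 3, 4 and 7, and cyc1 (ENSDARG00000038075), cytochrome c1, had 63 counts in mutant 6, against 1 and 126 counts in controls 5 and 7. In both genes most of the counts were in control 7, and the log2 fold changes were -1.90 (SE 2.40) and -1.56 (SE 2.54), each with an edgeR adjusted p of 1. Without mutant 6 cyc1 is at 0 in every mutant, and its unadjusted p was then under 0.05 (edgeR adjusted p = 0.148). The other core protein, uqcrc1, had 60 counts in mutant 6, against 20 and 1 counts in controls 1 and 6. The small subunits uqcrh (16 and 37 counts in mutants 2 and 4) and uqcrb (30 counts in mutant 2) were counted in mutants only, and uqcrq (4 and 2 counts in controls 4 and 7) in controls only.

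Complex IV held the one member that was counted in every mutant. Ndufa4 (ENSDARG00000056108), a cytochrome c oxidase subunit that was first assigned to complex I, had 85, 49, 37, 25, 148 and 153 counts in the 6 mutants, against 14 and 222 counts in controls 1 and 7 and 0 in controls 3, 4, 5, 6 and 8. In this way 6 of 7 controls lay below the lowest mutant, whereas control 7 lay above all mutants, and so the groups overlapped. The mean was 13.6 ± 7.54 CPM in mutants (SD, n = 6) and 8.47 ± 21.2 CPM in controls (SD, n = 7), with a log2 fold change of 0.68 (SE 1.79; edgeR adjusted p = 1). Without control 7 it was 4.88, with an unadjusted p under 0.05 and an adjusted p of 0.276, and with unscaled library sizes it was -0.09. A count in every mutant and in at most 2 of the 7 controls, as in ndufa4, was found in 0.114% of the 6138 genes tested (7 genes). This criterion was set after the values of ndufa4 were seen.

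Ndufa4l (ENSDARG00000099499), the ndufa4-like gene, had 2, 78 and 36 counts in mutants 2, 5 and 6 and none in controls. Its mean was 4.75-fold higher in mutants when controls are set to the floor of 3 counts per library, which is not a lower bound. Ndufa4l fell below the minimum for testing. Other complex IV genes differed in which libraries held them. Cox5b (ENSDARG00000015978), a zinc-binding subunit on the matrix side, had 75 counts in mutant 3, against 115 and 93 counts in controls 5 and 7, and 0 elsewhere (log2 fold change -1.65, SE 2.33; edgeR adjusted p = 1). This was -0.94 without control 5 and -0.69 without control 7, and without mutant 3, when every mutant is at 0, the unadjusted p was under 0.05 (edgeR adjusted p = 0.170). Cox6a2, named COX6A1 in the reference name table, had 28 and 157 counts in mutants 2 and 3, against 6 and 11 counts in controls 5 and 7 (log2 fold change 3.20, SE 2.66; edgeR adjusted p = 0.828). Cox7c had 36 and 49 counts in mutants 1 and 2, against 177 counts in control 4 (log2 fold change -0.50, SE 2.43; edgeR adjusted p = 1). Cox4i1, a regulatory subunit, and cox5aa were counted in mutants only, with 72 and 11 counts in mutants 3 and 6 for cox4i1 and 78 counts in mutant 6 for cox5aa (ENSDARG00000088383). Summed over its 10 nuclear genes, complex IV gave 140, 132, 341, 25, 226 and 278 counts in the mutants, against 14, 0, 177, 121, 21, 326 and 0 counts in the controls. The lowest mutant lay above 4 of the 7 controls, and the range of 25 to 341 counts in mutants (median 183) overlapped that of 0 to 326 counts in controls (median 21). The summed cardiomyocyte markers also had the higher median in mutants, as did those of endothelium (86 against 4) and erythrocytes (40.5 against 0). The single markers of skeletal muscle (552 against 18) and smooth muscle (160.5 against 28) went the same way. Markers of leukocytes (29.5 against 35) and of fibroblasts and epicardium (216.5 against 226) had the lower median in mutants. The part of these markers in the complex IV sums was not tested.

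The electron transfer flavoprotein passes electrons from acyl-CoA dehydrogenases to etfdh, its membrane-bound dehydrogenase. Etfa (ENSDARG00000101631), its alpha subunit, had 7 and 2 counts in mutants 2 and 5 and 0 in the other mutants, against 3, 4351 and 17 counts in controls 1, 5 and 7 and 0 in the other controls. All samples other than control 5 held 29 counts together. The mean was 0.314 ± 0.631 CPM in mutants (SD, n = 6) and 118.5 ± 311 CPM in controls (SD, n = 7), with a log2 fold change of -8.50 (SE 2.08; edgeR adjusted p = 0.0451). DESeq2 gave a log2 fold change of -0.83 and no adjusted p for this gene. By default it replaces outlying counts in groups of 7 or more samples, here the controls alone. Whether the count of control 5 was replaced was not examined. Mutants and controls overlapped outside control 5, and without that sample the mean was 2.42 counts, too low for the gene to be tested. The call was also lost when any 1 of mutants 1, 3, 4, 5 or 6 was left out, with adjusted p between 0.0177 and 0.161 over the 12 fits that could be made. Its partners did not share the signal of control 5. Etfb (ENSDARG00000009250), the beta subunit that pairs with etfa, had 45 counts in mutant 2 and none in controls. Etfdh (ENSDARG00000038834) had 1 and 38 counts in mutants 4 and 6, against 58 and 1 counts in controls 1 and 5.

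Several members are copies of 1 gene. Cox5aa was counted in 1 sample and cox5ab in none, sdhda in 2 and sdhdb in none, and neither ndufab1a nor ndufab1b, which encode the mitochondrial acyl carrier protein, had a count. Reads with a mapping quality under 20 were not counted by the authors, and how far that bears on reads shared between these copies was not tested.

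The mitochondrially encoded subunits of complexes I, III and IV, with 2 of the ATP synthase, which the members do not represent, were counted far more evenly over the samples. All 13 were counted, in a median of 13 samples. Their sum was 2535 to 27993 counts in mutants (median 10153.5) and 530 to 13410 counts in controls (median 5909). All 13 had a positive log2 fold change (median 1.33), against 44.0% of all genes tested, but none had an unadjusted or adjusted p under 0.05 in edgeR. The 13 signs rest on the same samples and were not tested as a group. These values come from the TMM-scaled fit of all samples only. They were not recomputed under other scalings or without controls 5 and 8. For all genes tested, the median log2 fold change was -0.30 in that fit and -1.51 with unscaled library sizes. With controls 5 and 8 at 1221 and 1008 counts and control 6 at 530 counts, these controls held the lowest mitochondrial sums of the series, and control 8 also held the fewest nuclear members. Control 5 and control 6, in contrast, had 11 and 7 nuclear members with a count. The regulators of mitochondrial biogenesis, a list of 5 genes, were as sparse as the members, with sums of 0 to 81 counts in mutants and 0 to 153 counts in controls. Ppargc1a, the transcriptional coactivator PGC-1α, had 81 counts in mutant 1, against 41 and 55 counts in controls 7 and 8. Both tested genes of the list, ppargc1a and polg, the mitochondrial DNA polymerase, had adjusted p of 1 in edgeR.

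**Figure D5:**
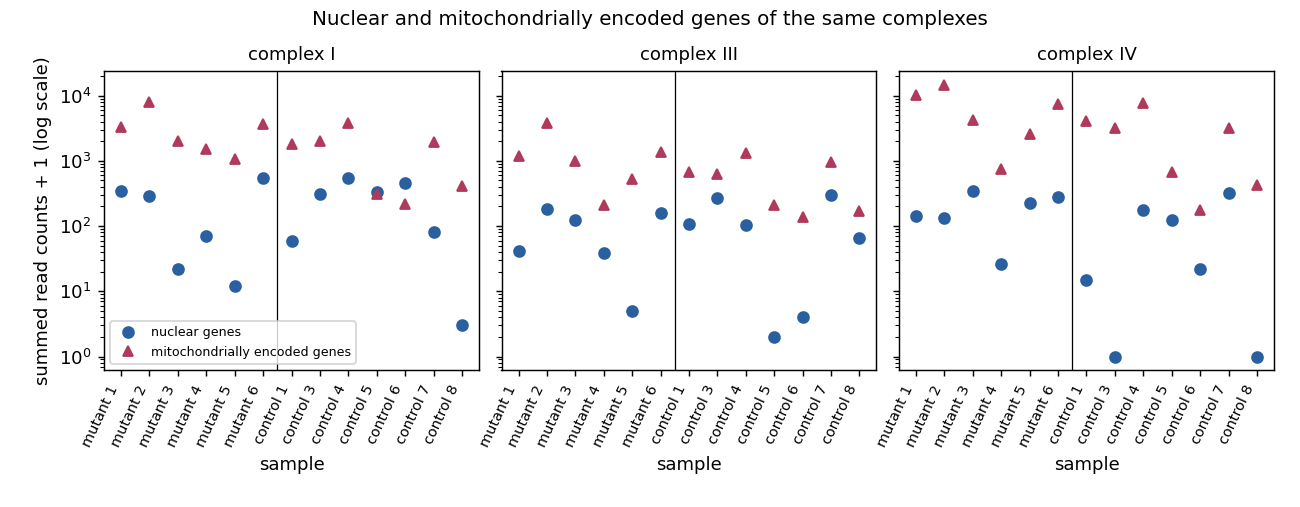
Summed counts plus 1 on a log scale (y axis) of nuclear genes (blue circles) and mitochondrially encoded genes (red triangles) of complexes I, III and IV in each mutant (left of the line) and control (right). Counts are not divided by gene length, so each symbol is read across samples. The nuclear genes of complex IV are at 0 in controls 3 and 8, while the mitochondrially encoded ones are counted in every sample.

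The same Reactome set, TCA cycle and respiratory electron transport, holds 46 further genes in the tables, mostly enzymes that feed the chain. Of these, 39 were counted and 21 tested. In edgeR, 2 were higher in mutants at an unadjusted p under 0.05 (ldhbb and dlat), against the background of 5.9%, and none was lower, against 9.3%. None was called at an adjusted p under 0.05. Their log2 fold changes were positive in 15 and negative in 6 (median 1.5, against -0.30 over all genes tested). These values too come from the TMM-scaled fit of all samples only and were not recomputed under other settings. Ldhbb, a lactate dehydrogenase subunit, had 128, 1 and 15 counts in mutants 1, 4 and 5 and none in controls (edgeR adjusted p = 0.103). Dlat, a subunit of the pyruvate dehydrogenase complex, had 184, 70, 4 and 7 counts in mutants 1, 2, 3 and 6, against 1 and 3 counts in controls 4 and 7 (log2 fold change 5.68, SE 2.78; edgeR adjusted p = 0.293). The TCA cycle enzyme genes ogdha (2-oxoglutarate dehydrogenase) and mdh2 (malate dehydrogenase) were counted in 13 and 12 samples, more than any nuclear respiratory chain gene, with log2 fold changes of 0.88 (SE 1.31; edgeR adjusted p = 1) and 1.56 (SE 1.52; edgeR adjusted p = 0.940).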

How the data were processed

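The deposited table holds counts of reads per gene for 13 samples. The authors trimmed reads with Skewer, aligned them to GRCz11 with BWA 0.7.17 and counted them on the sense strand of Ensembl genes with featureCounts 1.5.0 keeping mapping qualities of 20 or more; the counts were deposited without normalization. PCR copies were not removed by molecular identifiers, and the Wilson intervals take reads as independent, so they may be too narrow even for counting error. Gene symbols come from the study's supplementary tables, 1 of which was held here in shortened form, and symbols were matched ignoring case (COX5B and NDUFB1). Marker symbols and rn7sl1 were paired through a reference name table. That table gives the same name, ignoring case, for 49 of the 59 members. It names ndufa4 ndufa4b and ndufa4l NDUFA4. Sequences, coordinates and gene lengths of the members were not used here, so levels are not compared between genes.

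Genes averaging 10 or more counts entered the edgeR 4.0.16 quasi-likelihood test (R 4.3.3) with TMM scaling, 1 factor for genotype and Benjamini-Hochberg adjustment over all 6138 genes. CPM use TMM-scaled library sizes, rn7sl1 included. TMM factors were 0.442 to 1.23 in mutants and 1.02 to 1.93 in controls. The SE of a log2 fold change is its size divided by the square root of F. Depth was compared with exact permutation tests over 1716 splits. Total counts were 3575023 to 12972634 in mutants and 2123784 to 4291363 in controls. The labels name separate samples, and p-values measure the spread between them. The procedure was tried on simulated counts with a far lower spread between samples (dispersion) than these data, whose common dispersion was 8.38. That trial does not tell how the fit behaves on counts this sparse.

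Members and lists were chosen with earlier results of these data known. Named members are those with an unadjusted p under 0.05, the 2 of highest mean CPM in each complex, the 5 counted in the most samples, gene copies, complex II and electron transfer flavoprotein genes and cyc1. Other members named, and the genes of the Reactome set that are named, were chosen after their values were seen. One member is included in all sums and counts, apart from the plot of counts by gene and the list of samples standing apart, but is not reported by name. Replicate numbers shared by the groups belong to different fish and were not used to pair samples, except in the replicate block. As alternatives, library sizes were scaled by TMMwsp, RLE or upper quartile or left unscaled, and fits used no filter, filterByExpr, the likelihood ratio test, the robust fit, DESeq2 1.42.0, a fit without rn7sl1, a replicate block and leaving out each sample; leaving out controls 5 and 8, and the share without etfa, were added after seeing the data.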

Additional observations from a re-analysis of the deposited data

Results flagged for a closer look

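In a group of 6 mutants or 7 controls, a sample was taken as standing apart where its distance to the next sample, divided by the range of the group (the gap), was above Dixon's 95% critical value. Of the 74 groups examined, 53 stood apart. Chance gives about 1 in 20 groups for normally distributed values, which these mostly zero counts are not, so the number describes sparse counts and is no test. In 30 of the groups the gap was 1, which follows by construction where a single sample holds all counts of the gene in that group, and 7 of these rested on 3 counts or fewer. In mutants these were cox5aa, cox5b, cox7a2l, cox8a, cyc1, etfb, ndufa3, ndufa6, ndufa7, ndufa8, ndufa9a, ndufa10, ndufb2, ndufb7, ndufb8, ndufb9, ndufs5, ndufs6, ndufs7, sdha, sdhc, uqcrb and uqcrc1, and in controls cox7c, cox8a, ndufa7, ndufa9a, ndufb6, ndufb10 and ndufs6.

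The summed counts of all members (gap 0.844) and their share of the counts outside rn7sl1 (gap 0.777) stood apart in control 5, which held 4989 member counts, 4351 of them on etfa. In mutants the other gaps in CPM were 0.807 for etfa, 0.959 for etfdh, 0.973 for ndufv2, 0.804 for ndufv3, 0.804 for ndufb3, 0.863 for cox4i1 and 0.756 for cox6a2. In controls, genes of complex I gave gaps of 0.920 for ndufs8a, 0.737 for ndufv3, 0.964 for ndufs4 and 0.989 for ndufs7. Complex II gave 0.917 for sdhb, 0.775 for sdhc and 0.830 for sdhda, and complex III gave 0.994 for cyc1, 0.936 for uqcrc1 and 0.996 for uqcrc2b. Cox6a2 (0.594), ndufa4 (0.952, control 7), etfa (0.995, control 5) and etfdh (0.983) completed the list in controls.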

How the results depend on the processing

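In 21 of the 46 counted members (45.7%), 1 library held over 90% of the counts, against 43.4% of all genes counted. This limits the fold changes. The call of etfa (1 member at an adjusted p under 0.05) became 0 with upper-quartile scaling, no filter, filterByExpr, the likelihood ratio test, DESeq2, the replicate block and without controls 5 and 8. Leaving out 1 sample gave 0 to 1 call. The fit without rn7sl1 kept the call of etfa (edgeR adjusted p = 0.0461), and the median log2 fold change of the tested members was then -0.67. FilterByExpr left 3 members to test, and DESeq2 gave no adjusted p for 6 of the 16 members, etfa among them. The adjusted p of etfa ran from 0.00293 to 1 over its alternatives. Members at an unadjusted p under 0.05 (4) numbered 24 of 46 with no filter (16 higher, 8 lower; 34.9% of all genes), 0 of 3 with filterByExpr (2.64% of all genes), 1 with DESeq2 (13% of all genes) and 2 with the replicate block (etfa and ndufa4; 1.78% of all genes), and 3 to 5 when 1 sample was left out. The median log2 fold change of -0.73 was 1.22 with upper-quartile scaling, -2.14 unscaled, 1.65 with no filter and 2.36 in DESeq2, and -1.51 to -0.47 when 1 sample was left out. The median of all genes tested was 0.39 with upper-quartile scaling, -1.51 unscaled, -0.77 with no filter and 0 in DESeq2. The ratio of shares (0.531) was 0.987 without the highest member of each sample and 0.995 without etfa, and 0.456 to 0.973 when 1 sample was left out. The difference in members with a count (2.21) was -0.09 to 3.71.

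The sign of 7 members changed in 11 of 378 recomputed values, and the cause was not tested. With upper-quartile scaling, log2 fold changes were 3.75 for cox5b, 0.27 for cox7c and 2.36 for uqcrfs1. In DESeq2 they were 4.84 for cox7c, 4.35 for cyc1 and 3.45 for uqcrc2b. These genes had their highest count in a control (control 4 for cox7c, control 7 for cyc1 and uqcrc2b). By default DESeq2 replaces outlying counts only in groups of 7 or more samples, here the controls alone, and the part of this was not tested. Ndufa4 was -0.089 unscaled, and uqcrfs1 lay between -1.25 and 0.14 when 1 sample was left out, 0.14 without control 3.

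With replicate number as a block, 0 members were called at an adjusted p and 2 at an unadjusted p. Log2 fold changes were then 0.55 for cyc1, -1.23 for sdhb (-7.28 for sdha) and 0.87 for uqcrc2b. Mutant 2 and controls 7 and 8 had no same-numbered sample in the other group. They did not inform the genotype effect in that fit, which is thus not a fit of all samples. The replicate block gave etfa -5.13 (edgeR adjusted p = 1). Deviations of same-numbered samples correlated between -0.02 and 0.09 over the 5 shared numbers. Among these, the same-numbered control was the best match for mutants 1 and 5 and not for the others. No pairing by number was evident, but with counts this sparse the check cannot exclude one.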
